A study of Mus musculus with 7 samples.

Results

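A set of 23 genes was higher in 15.5 dpc prospermatogonia of H19Ter+neo fetuses than in those of both H19Ter and WT fetuses, while H19Ter and WT lay close to each other. The genes were chosen from their values in the 7 libraries of the study, out of 20643 genes in the table. In each, the lowest H19Ter+neo library was at least 0.8 above the highest of the 4 other libraries on the log2 scale (a difference called the gap here), the mean of H19Ter and that of WT differed by at most 0.5, and the mean of H19Ter+neo was at least 1. Genes without a symbol, and those whose symbol marks a predicted gene, a pseudogene or a RIKEN clone, were left out, which kept 14979 genes. Since every comparison of the genotypes went into the choice, the levels of the 23 genes are a description and carry no test.

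Prospermatogonia are the fetal male germ cells that enter mitotic arrest before birth and are given their DNA methylation anew during that time. The study asked what a transcript that runs across the H19/Igf2 imprinting control region in these cells does there. Total RNA was sequenced from EGFP+ germ cells that were sorted from fetal testes. The labels give 3 H19Ter+neo libraries (replicates 5, 6 and 7), 2 H19Ter libraries (replicates 3 and 4) and 2 WT libraries (replicates 1 and 2), at 15 dpc in their source name and 15.5 dpc in their protocol.

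Both mutants were homozygous for a cassette that ends transcription at the entry of the control region. The H19Ter+neo allele also holds the Pgkneo selection cassette between LoxP sites. H19Ter is the same allele after Cre, carried by an Hprt-Cre line, removed Pgkneo. The mutants descend from 1 ES cell line, were bred on 129S1, and received from TgOG2, a B6;CBA line, the Pou5f1-EGFP transgene that serves to sort germ cells. Mutant fetuses came from parents of their own genotype and several testes could be digested together. Neither the labels nor the methods state the strain makeup, the litter or the batch of each library. Pgkneo, strain background and litter can therefore not be told apart in these libraries, and in sorted bulk cells neither can more cells of a kind and more RNA per cell.

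The levels below are deposited log2 CPM, where CPM is a gene's share of the scaled library in read pairs per M. Recovered read pairs came to 84.1, 86.3 and 87.3 M in H19Ter+neo replicates 5, 6 and 7, against 51.2 and 37.5 M in H19Ter replicates 3 and 4 and 45.1 and 45.9 M in WT replicates 1 and 2. Depth thus went with genotype. All 23 germ cell markers, Dazl, Ddx4, Pou5f1 and Nanos2 among them, had a value, and together they came to 6680 to 6957 CPM in H19Ter+neo, 6226 to 6360 CPM in H19Ter and 6744 to 6987 CPM in WT. One by one, 5 of the 23 were higher and 11 lower in H19Ter+neo than in WT in limma, with a median log2 fold change of -0.20, and their median level was 7.36 to 7.54 log2 CPM in H19Ter+neo, 7.96 to 7.98 in H19Ter and 7.95 to 8.04 in WT. The part of the germ cell markers in the levels below was not tested. Sertoli cell markers summed to 34.2 to 48.0 CPM in H19Ter+neo (14 of 17 markers with a value), against 41.4 to 50.3 CPM in H19Ter and 38.8 to 40.5 CPM in WT. Markers of skeletal and cardiac muscle (9 of 15 with a value) were higher in both mutants than in WT, at 789 to 1054 CPM in H19Ter+neo, 738 to 795 CPM in H19Ter and 486 to 587 CPM in WT, and their part in the levels below was not tested. H19 itself was at 5.10, 5.34 and 5.36 log2 CPM in H19Ter+neo, 5.70 and 5.36 in H19Ter and 5.48 and 5.52 in WT, so that all 3 H19Ter+neo libraries lay below both WT libraries and H19Ter overlapped with each (limma log2 fold change of H19Ter+neo against WT -0.23, adjusted p = 0.102).

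Genes that move with genotype were common in these libraries. In limma, at a Benjamini-Hochberg adjusted p under 0.05, 27.7% of all genes were higher and 26.7% lower (54.4% either way) in H19Ter+neo than in WT, and 12.5% were higher and 15.2% lower in H19Ter+neo than in H19Ter. The 23 genes were all higher in both comparisons, which their choice had fixed. All 3 H19Ter+neo libraries lay above all 4 others for 20.1% of genes, and a gap of 0.8 or more was found for 0.794% of genes. The rule mirrored, for genes lower in H19Ter+neo, would have taken 28 genes.

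Over the 23 genes, H19Ter+neo exceeded WT by a median of 1.53 (0.94 to 2.06) and H19Ter by a median of 1.33 (0.86 to 1.77) on the log2 scale, against medians of 0.01 in both comparisons over all genes. H19Ter minus WT had a median of 0.10 and ran between -0.31 and 0.43. The members fell into 6 role groups that were made once they were known. They are 6 histone genes, 2 genes of germ cells and sperm, 4 of signalling, 6 of membranes and transport, 3 of the mitochondrion and of ubiquitin ligation, and 2 small RNAs. With every library scaled to its plain total 15 of the 23 still met the rule, and 18 did with the libraries thinned to the same depth. In the plot of all values by library, the H19Ter+neo points stand apart on the right in every row. H19Ter and WT overlapped in 13 rows, while in 9 rows both H19Ter libraries lay above both WT libraries and in 1 row (H4c3) below them. How many of all genes separate in this way was not counted, so nothing is read from these counts. In limma, 1 of the 23 was higher and 0 were lower in H19Ter than in WT, against 14.1% and 11% of all genes. The rule had limited this difference, so these calls carry no test either.

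**Figure D1:**
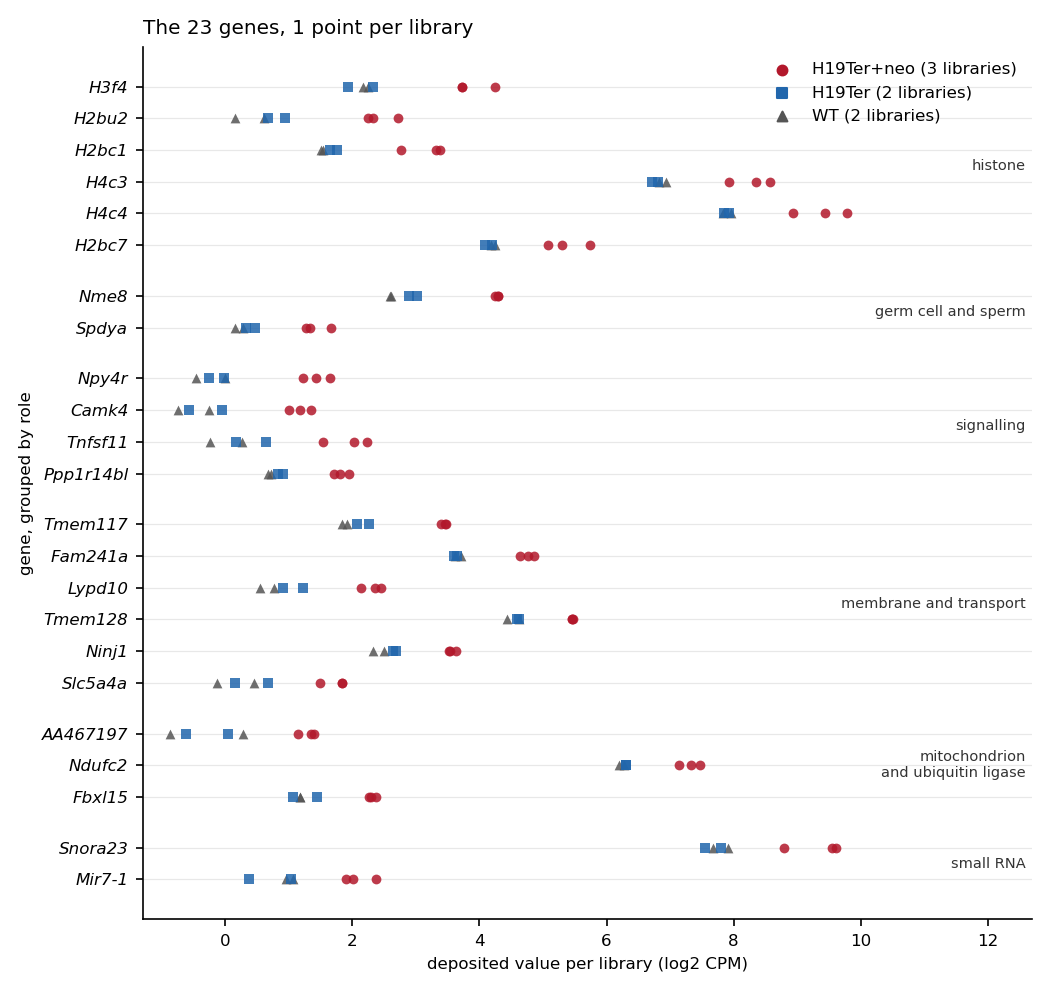
Deposited log2 CPM (x axis) of the 23 genes (rows, by role group) in the 3 H19Ter+neo (red circles), 2 H19Ter (blue squares) and 2 WT libraries (grey triangles). Each row has a gap of at least 0.8 between the red points and all others, from 0.80 in Spdya to 1.39 in H3f4, and levels run from about 1 log2 CPM to 9.39 for the H19Ter+neo mean of H4c4.

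Genes just inside the limit were Spdya (gap 0.80), Slc5a4a (0.81), Ppp1r14bl (0.82) and Fbxl15 (0.82). Just outside it were Mgst3 (0.76), Rpl39l (0.75), Cox8c (0.74) and Catsperb (0.72). These are a microsomal glutathione transferase, a ribosomal protein paralogue and a cytochrome oxidase subunit known from testis, and a subunit of the sperm calcium channel CatSper. Of 35 genes with a kept symbol, a gap of at least 0.8 and a mean of at least 1, 12 were outside the limit on H19Ter minus WT. Among them were H4f16, with a gap of 1.32 and H19Ter 0.86 above WT, and H4c18, with a gap of 0.83 and H19Ter 0.53 above WT. A further 15 genes met every limit on the values and were left out by symbol alone, with Gm21738 (gap 1.92) at their head.

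**Figure D2:**
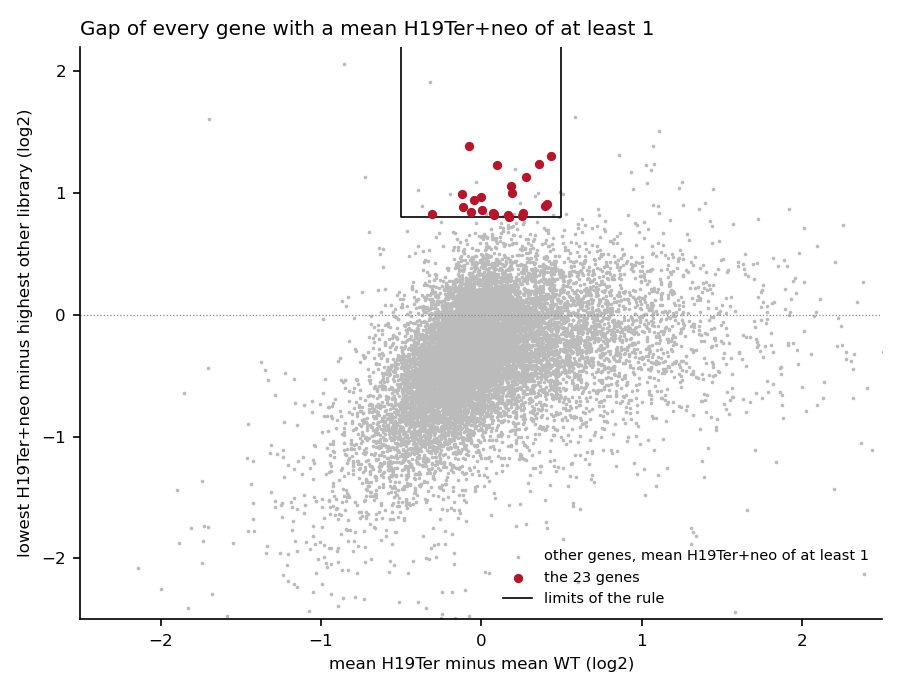
Gap between the lowest H19Ter+neo library and the highest other library (y axis, log2) against mean H19Ter minus mean WT (x axis, log2) for genes with a mean H19Ter+neo of at least 1. The 23 genes (red) fill the box that the rule draws from a gap of 0.8 upward and between -0.5 and 0.5, and the 15 grey points in the box are genes left out by symbol, while 86 of 14439 genes lie beyond the axes.

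Histones package DNA into nucleosomes, made of the core histones H2A, H2B, H3 and H4 and closed by the linker H1. Most of their genes sit in clusters, lack introns, are switched on in S phase, and give mRNAs that end in a stem-loop and not in a poly(A) tail. Sequencing of total RNA reads such mRNAs, which a poly(A) library would miss. Of the 6 histone members, 3 encode H2B, 2 encode H4 and 1 encodes H3.

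H3f4 (ENSMUSG00000080152, chr11:58961812-58962222, plus strand) led the 23 genes by gap. The table names it H3f4, the gene of the testis H3 variant H3t in mouse, and GENCODE vM21 lists the locus as an unprocessed pseudogene. It stood at 3.73, 3.72 and 4.24 log2 CPM in H19Ter+neo, against 2.33 and 1.93 in H19Ter and 2.17 and 2.24 in WT. These values rest on 1076, 1145 and 1628 read pairs in H19Ter+neo, 266 and 146 in H19Ter and 200 and 209 in WT. H19Ter+neo was 3.23-fold above WT and 3.40-fold above H19Ter, and the H19Ter and WT libraries overlapped. None of its 50-base stretches occurs in a transcript of another gene. Trim17, a ubiquitin ligase gene that overlaps the locus on the same strand, had a limma log2 fold change of -0.01 (standard error 0.35, adjusted p = 0.992) between H19Ter+neo and H19Ter. Against WT, Trim17 was higher in both mutants in limma, by 1.61 in H19Ter+neo (adjusted p = 0.00300) and 1.62 in H19Ter (adjusted p = 0.0140).

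H2bu2 lies 12279 bases before H3f4 on the same strand, at chr11:58948920-58949533, and encodes an H2B outside the large histone cluster. It had 2.24, 2.32 and 2.72 log2 CPM in H19Ter+neo, against 0.67 and 0.94 in H19Ter and 0.14 and 0.60 in WT. Its difference from WT, 2.06, was the largest of the 23 genes, and H19Ter lay 0.43 above WT. Between the 2 genes lie H2aw, an H2A gene, and H2bu1-ps, an H2B pseudogene that shares sequence with H2bu2. H2aw had a log2 difference of -0.45 between H19Ter+neo and WT and -0.30 between H19Ter+neo and H19Ter, and H2bu1-ps had 0.83 and 0.68. The differences on this stretch thus had both signs.

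The other 4 histone members sit in the main histone cluster on chromosome 13. H2bc1 (chr13:23933773-23934156) encodes the testis H2B variant TH2B, which takes the place of the common H2B in meiotic and later germ cells. It was at 3.32, 2.76 and 3.38 log2 CPM in H19Ter+neo, at 1.65 and 1.76 in H19Ter and at 1.50 and 1.53 in WT. H2ac1, the gene of the testis H2A partner TH2A, is its direct neighbour on the opposite strand, 306 bases away. H2ac1 had 2.58, 1.997 and 2.60 log2 CPM in H19Ter+neo, 1.22 and 1.86 in H19Ter and 1.76 and 1.58 in WT, a gap of 0.14. It was no member, with a limma log2 fold change of 0.72 against WT (standard error 0.23, adjusted p = 0.0235) and of 0.86 against H19Ter (standard error 0.23, adjusted p = 0.0216).

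H4c3 (chr13:23697635-23698454) and H4c4 (chr13:23581598-23582735) encode the core histone H4. H4c4 had 9.44, 8.93 and 9.78 log2 CPM in H19Ter+neo, against 7.94 and 7.85 in H19Ter and 7.96 and 7.83 in WT. H4c3 had 8.35, 7.93 and 8.58 log2 CPM in H19Ter+neo, against 6.81 and 6.71 in H19Ter and 6.94 and 6.83 in WT. H4c4 was 2.81-fold and H4c3 2.64-fold above WT in H19Ter+neo, and H19Ter and WT differed by no more than 0.12. H2bc7 (chr13:23573736-23574196), an H2B gene 7402 bases from H4c4, had 5.30, 5.08 and 5.74 log2 CPM in H19Ter+neo, 4.20 and 4.09 in H19Ter and 4.24 and 4.18 in WT. Its gap, 0.85, was the smallest of the 6.

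Per length, the members differed widely in level. H4c4 reached 605 and H4c3 387 read pairs per kb and M in H19Ter+neo, H2bc7 91.4, H3f4 36.7, H2bc1 23.5 and H2bu2 8.80. The share of 50-base stretches that also occur in transcripts of other genes was 65.8% for H2bc7, 38.2% for H2bc1, 22.1% for H2bu2, 19.6% for H4c3 and 10.2% for H4c4. As the authors' counter keeps only reads with 1 place in the genome, counts from those stretches may be missing. A read pair with 1 end outside such a stretch can still be placed, so how many counts are missing was not measured. The level of these genes is uncertain to that extent.

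The stem-loop is shown since it marks mRNAs of S phase histone genes. The histone stem-loop, with 6 bases at each end that pair and 4 between them, was searched in all transcripts on the RNA strand. Of the 23 members, 4 hold it in their longest transcript, against 38 of 70 histone genes and 0.66% of 20610 genes in any transcript. In the lines that follow, capitals mark the paired bases.
H4c3 and H4c4: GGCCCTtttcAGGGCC
H2bc7 and H2bu2: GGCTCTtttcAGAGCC
H3f4 and H2bc1, the genes of the testis variants, held no match in their annotated transcripts of 411 and 384 bases. A stem-loop beyond an annotated end could not be found, so a missing match does not show that the RNA lacks it. The same limit applies to the count over the 70 histone genes. The annotated transcripts of H4c4 and H4c3 run on for 770 and 454 bases after the stem-loop, and which side of it the reads come from was not measured.

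Promoters of the histone members are shown because 6 of 6 hold a CCAAT box, the site bound by the factor NF-Y. The sequences are the 160 bases before the start of transcription in RefSeq (GRCm38.p6). Capitals mark CCAAT and TATAAA, on either strand. H4c3 and H2bc7, which are not printed, hold CCAAT and no TATAAA in these 160 bases.
H3f4, chr11:58961551-58961710: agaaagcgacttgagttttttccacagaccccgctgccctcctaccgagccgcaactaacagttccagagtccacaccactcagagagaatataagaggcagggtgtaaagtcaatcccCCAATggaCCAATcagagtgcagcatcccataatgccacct
H2bu2, chr11:58948751-58948910: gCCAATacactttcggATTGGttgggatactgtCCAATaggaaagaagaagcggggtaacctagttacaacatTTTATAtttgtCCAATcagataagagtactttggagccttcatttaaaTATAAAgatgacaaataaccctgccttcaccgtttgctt
H2bc1, chr13:23934157-23934316: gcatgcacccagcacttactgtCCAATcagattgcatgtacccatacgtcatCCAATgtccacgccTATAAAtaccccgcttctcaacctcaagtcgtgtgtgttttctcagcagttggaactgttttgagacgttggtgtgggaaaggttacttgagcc
H4c4, chr13:23581408-23581567: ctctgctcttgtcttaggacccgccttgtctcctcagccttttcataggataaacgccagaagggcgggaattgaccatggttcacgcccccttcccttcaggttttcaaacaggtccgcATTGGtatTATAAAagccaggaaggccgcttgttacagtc
Promoter windows of 300 bases were at hand in RefSeq for 20 of the 23 members. CCAAT was in 13 of the 20 (65%), 52 of 63 histone promoters (82.5%) and 39.1% of 12687 promoters, and TATAAA was in 9 of the 20 (45%), 36 of 63 histone promoters (57.1%) and 7.78% of all. Motifs were searched on both strands, and a match does not show that a factor binds there.

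The 70 histone genes with a value, a list made after the members were known, did not move as 1 block. In limma, 44 of the 70 were higher and 2 lower in H19Ter+neo than in H19Ter, where 12.5% of all genes were higher. Against WT, 23 of the 70 were higher and 12 lower, where 27.7% of all genes were higher and 26.7% lower. This balance turned to 19 higher and 20 lower without H19Ter+neo replicate 5, and the counts were 32 and 7 without H19Ter+neo replicate 6, 21 and 8 without H19Ter+neo replicate 7, 15 and 6 without WT replicate 1 and 18 and 2 without WT replicate 2. Without the 6 members, 38 of 64 were higher against H19Ter and 17 of 64 against WT, with median log2 differences of 0.76 and 0.04. H19Ter was lower than WT for 25 of the 70 and higher for 1 (H4f16), at a median of -0.54, against 11% lower and 14.1% higher of all genes. These 25 calls came to 0 without WT replicate 2, 1 without H19Ter replicate 4, 6 without H19Ter replicate 3, 7 without WT replicate 1 and 2 in a voom fit, but to 39 without H19Ter+neo replicate 5 and 40 without H19Ter+neo replicate 6, and the 44 calls came to 26 without H19Ter replicate 4, 29 without H19Ter replicate 3 and 35 with voom.

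By class, against WT, 6 of 13 H4 genes were higher and none lower, 8 of 18 H2B genes were higher and 1 lower, 7 of 18 H2A genes were higher and 3 lower, and 2 of 13 H3 genes were higher and 1 lower. Of the 8 genes of H1, the linker histone, none was higher and 7 were lower, at a median log2 difference of -0.68. H1f6, the testis H1t gene that lies 910 bases from H4c3, was the exception, at 2.77, 2.72 and 3.28 log2 CPM in H19Ter+neo, 3.10 and 3.05 in H19Ter and 2.74 and 3.04 in WT. Whether the classes differ from each other was not tested.

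**Figure D3:**
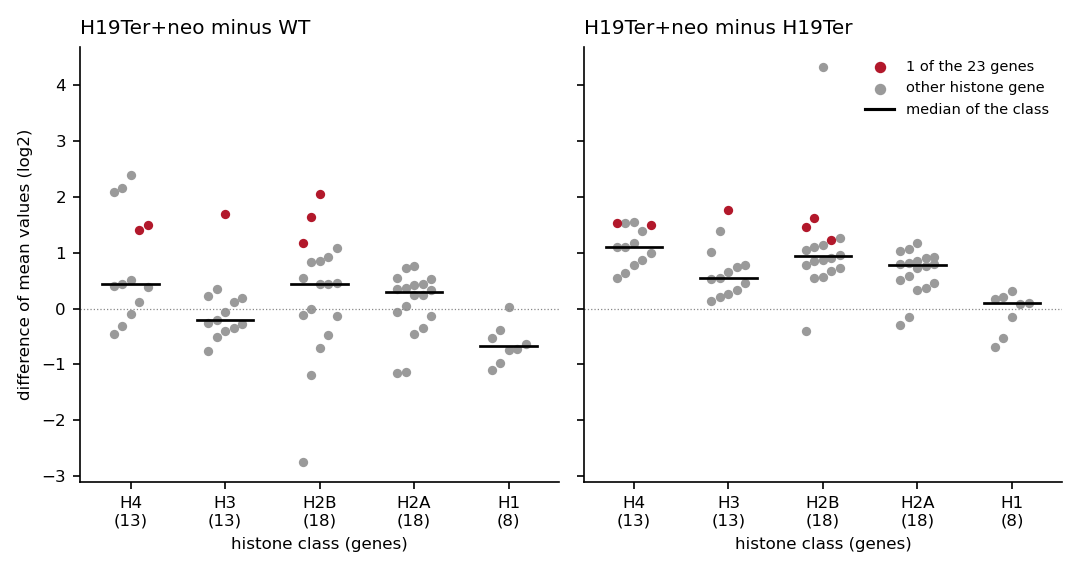
Difference of mean log2 CPM between H19Ter+neo and WT (left) and between H19Ter+neo and H19Ter (right) for each of 70 histone genes, by class, with black lines at the class medians. The 6 members (red) lie among the highest of H4, H3 and H2B in both panels, and class medians run from -0.68 (H1) to 0.45 (H2B) on the left and from 0.09 (H1) to 1.10 (H4) on the right.

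Other H4 and H2B genes came near the rule, and those given here were chosen after their values were seen. H4f16 on chromosome 6 had 7.19, 6.75 and 6.88 log2 CPM in H19Ter+neo, 5.38 and 5.43 in H19Ter and 4.67 and 4.42 in WT, and H19Ter was above WT (limma log2 fold change 0.86, adjusted p = 0.00225). H4c9 had 6.24, 5.89 and 6.95 log2 CPM in H19Ter+neo, 4.81 and 5.12 in H19Ter and 4.24 and 4.15 in WT. In both genes the 3 genotypes stood in steps, with H19Ter between the others. H2bc4 had 5.20, 4.97 and 5.24 log2 CPM in H19Ter+neo, 4.35 and 4.11 in H19Ter and 4.20 and 4.23 in WT, the pattern of the members at a gap of 0.62. H3f3a and H3f3b, which encode the H3.3 made outside S phase, differed from WT by 0.34 and 0.11.

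Summed over the 70 genes, histone RNA came to 4149, 2972 and 4117 CPM in H19Ter+neo replicates 5, 6 and 7, 2112 and 1985 CPM in H19Ter and 2482 and 2615 CPM in WT. The 6 members gave 1088, 791 and 1353 CPM of these in H19Ter+neo, 385 and 361 CPM in H19Ter and 399 and 368 CPM in WT. The other 64 genes gave 3061, 2181 and 2764 CPM in H19Ter+neo, 1727 and 1625 CPM in H19Ter and 2083 and 2247 CPM in WT, so that H19Ter+neo and WT overlapped once the members were left out. A list of 38 cell cycle genes did not go with them, as 0 were higher and 19 lower in H19Ter+neo than in WT in limma at an adjusted p under 0.05, and 1 was higher and 13 lower than in H19Ter, where 26.7% and 15.2% of all genes were lower. Their summed level was 2513 to 2862 CPM in H19Ter+neo, 2718 to 2856 CPM in H19Ter and 3268 to 3574 CPM in WT.

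Among genes of germ cells and sperm, Nme8 had the third largest gap of all, 1.24. Nme8 (chr13:19645078-19697794) encodes a thioredoxin-domain protein of sperm and motile cilia. It was at 4.29, 4.25 and 4.30 log2 CPM in H19Ter+neo, 2.90 and 3.01 in H19Ter and 2.60 and 2.59 in WT, so that the 3 groups stood in steps and the replicates were close. The read pairs were 1594, 1655 and 1692 in H19Ter+neo, 395 and 311 in H19Ter and 270 and 267 in WT. Spdya (chr17:71552061-71589533) encodes Speedy A, which activates CDK2 and ties telomeres to the nuclear envelope in meiosis. It lay at 1.26, 1.34 and 1.66 log2 CPM in H19Ter+neo, 0.33 and 0.46 in H19Ter and 0.28 and 0.15 in WT. No other exon on the same strand covers 88.6% of its exonic bases, and 18.3% lie under exons of Trmt61b on the opposite strand. Whether the counting used strand is not stated by the labels or methods.

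Lists of related genes hold no member, where 23 of all 20643 genes met the rule. The shares of all genes to set beside their counts are 27.7% higher and 26.7% lower against WT and 12.5% higher and 15.2% lower against H19Ter. Of 30 axoneme and cilium motility genes, 24 were higher and 3 lower in H19Ter+neo than in WT in limma, and 9 were higher and 2 lower than in H19Ter. In H19Ter against WT, 18 of the 30 were higher and 1 lower, where 14.1% of all genes were higher. Of 22 meiosis genes, 10 were higher and 4 lower in H19Ter+neo than in WT, and 7 were higher and 1 lower than in H19Ter. In H19Ter against WT, 3 of the 22 were higher and 4 lower, where 11% of all genes were lower. Of 9 sperm and spermatid genes, 4 were higher and 2 lower in H19Ter+neo than in WT, and 3 were higher and 1 lower than in H19Ter. In H19Ter against WT, 1 of the 9 was higher and 2 lower.

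Of the 4 members of signalling, Npy4r (chr14:34143992-34152489) encodes the receptor for pancreatic polypeptide. It had 1.22, 1.42 and 1.65 log2 CPM in H19Ter+neo, -0.25 and -0.02 in H19Ter and -0.01 and -0.46 in WT. Camk4 on chromosome 18, the gene of a calcium/calmodulin-dependent kinase, had 1.18, 0.996 and 1.34 log2 CPM in H19Ter+neo, -0.58 and -0.06 in H19Ter and -0.26 and -0.75 in WT. Npy4r was 3.17-fold and Camk4 3.20-fold above WT, and in both the H19Ter and WT libraries overlapped. Npy4r rests on 187, 230 and 268 read pairs in H19Ter+neo, 43 and 37 in H19Ter and 43 and 31 in WT.

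Tnfsf11 (chr14:78277445-78308043) encodes RANKL, the cytokine that drives the making of osteoclasts. Its values were 1.53, 2.23 and 2.03 log2 CPM in H19Ter+neo, 0.17 and 0.64 in H19Ter and 0.25 and -0.25 in WT, with the second largest difference from WT of the 23 genes (1.93). H19Ter and WT overlapped. Ppp1r14bl (chr1:23100473-23102253), a single-exon gene whose product resembles an inhibitor of protein phosphatase 1, had 1.80, 1.71 and 1.95 log2 CPM in H19Ter+neo, 0.83 and 0.90 in H19Ter and 0.67 and 0.72 in WT. These 4 genes had low levels, of 0.685 to 1.97 read pairs per kb and M in H19Ter+neo.

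Membrane and transport genes made up 6 of the 23, and their SD among the H19Ter+neo libraries had a median of 0.08. Tmem117 (chr15:94629232-95096098), which encodes a membrane protein, was at 3.48, 3.39 and 3.46 log2 CPM in H19Ter+neo, 2.26 and 2.07 in H19Ter and 1.84 and 1.92 in WT. Fam241a (chr3:127869058-127896324), the gene of a small membrane protein, was at 4.86, 4.64 and 4.77 log2 CPM in H19Ter+neo, 3.64 and 3.60 in H19Ter and 3.70 and 3.62 in WT. Tmem128 (chr5:38260185-38269634) had the smallest difference from WT of the 23 genes, 0.94, and the smallest spread, with 5.46, 5.48 and 5.45 log2 CPM in H19Ter+neo, 4.59 and 4.62 in H19Ter and 4.44 and 4.62 in WT. In these 3 genes the step to H19Ter+neo was several times the range of the replicates. The rule, with its gap of at least 0.8, had favoured such genes, so this is a description only.

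Ninj1 (chr13:49187485-49196244) encodes the protein that ruptures the plasma membrane of dying cells. It was at 3.62, 3.52 and 3.53 log2 CPM in H19Ter+neo, 2.64 and 2.69 in H19Ter and 2.49 and 2.32 in WT. Its neighbour Card19, 6706 bases away on the opposite strand, had a limma log2 fold change of 1.20 against WT (standard error 0.17, adjusted p = 2.77e-04) and of 0.64 against H19Ter (standard error 0.17, adjusted p = 0.0202), a gap of 0.40. Slc5a4a (chr10:76147451-76189265), a sodium/glucose cotransporter of the SGLT3 type, had 1.48, 1.84 and 1.84 log2 CPM in H19Ter+neo, 0.67 and 0.16 in H19Ter and 0.46 and -0.14 in WT. Its paralogue Slc5a4b next to it did not pass limma between H19Ter+neo and H19Ter (0.19, standard error 0.38, adjusted p = 0.746). Against WT, Slc5a4b was higher in both mutants in limma, by 1.77 in H19Ter+neo (adjusted p = 0.00286) and 1.59 in H19Ter (adjusted p = 0.0214). Its values rest on 5 to 67 read pairs a library.

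Lypd10 (chr7:24709242-24714535) belongs to the Ly6/PLAUR family of surface proteins, whose neighbour Tex101 is a germ cell marker of the same family. It had 2.13, 2.45 and 2.35 log2 CPM in H19Ter+neo, 0.91 and 1.22 in H19Ter and 0.55 and 0.76 in WT. Lypd11, 488 bases away on the opposite strand, had 1.90, 2.25 and 2.23 log2 CPM in H19Ter+neo, 1.42 and 1.27 in H19Ter and 0.61 and 0.58 in WT, a gap of 0.48. Tex101 had 6.20, 6.25 and 6.07 log2 CPM in H19Ter+neo, 5.74 and 5.93 in H19Ter and 5.90 and 5.65 in WT. All 3 neighbours were thus highest in H19Ter+neo, with gaps that differed. Of Lypd10, 14.9% of 50-base stretches occur in other transcripts.

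Ndufc2 (chr7:97400003-97407802) encodes a subunit of complex I, the first enzyme of the respiratory chain, and had 7.46, 7.33 and 7.14 log2 CPM in H19Ter+neo, 6.31 and 6.31 in H19Ter and 6.19 and 6.28 in WT. AA467197 (chr2:122636986-122641191), whose product is related to a subunit of the respiratory chain and whose transcript holds miR-147, was at 1.34, 1.40 and 1.14 log2 CPM in H19Ter+neo, 0.04 and -0.62 in H19Ter and 0.28 and -0.87 in WT. AA467197 rests on 204, 227 and 188 read pairs in H19Ter+neo, 53 and 24 in H19Ter and 53 and 23 in WT. Fbxl15 (chr19:46328184-46330446), the substrate receptor of a ubiquitin ligase, had 2.37, 2.30 and 2.26 log2 CPM in H19Ter+neo, 1.44 and 1.07 in H19Ter and 1.18 and 1.17 in WT. Exons of Cuedc2 on the opposite strand cover 25.6% of its exonic bases. Cuedc2 did not share its pattern, with H19Ter+neo 0.03 below WT and 0.18 below H19Ter.

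Of the 2 small RNAs, Snora23 is an H/ACA box small nucleolar RNA, of the class that guides the change of uridine to pseudouridine. It lies in an intron of Ipo7, the gene of an importin, at chr7:110046364-110046547. The annotated RNA is shown with its 3′ ACA box in capitals.
Snora23: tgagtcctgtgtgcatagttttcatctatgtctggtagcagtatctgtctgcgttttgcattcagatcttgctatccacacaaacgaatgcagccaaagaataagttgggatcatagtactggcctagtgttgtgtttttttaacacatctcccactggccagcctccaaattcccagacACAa
Snora23 had 9.55, 8.80 and 9.61 log2 CPM in H19Ter+neo, 7.56 and 7.80 in H19Ter and 7.91 and 7.68 in WT. Its read pairs were 61297, 38826 and 67615 in H19Ter+neo, 10020 and 8665 in H19Ter and 10783 and 9117 in WT. Ipo7 did not go with it, at 7.15, 6.95 and 7.02 log2 CPM in H19Ter+neo, 6.96 and 6.96 in H19Ter and 7.28 and 7.45 in WT. Between H19Ter+neo and WT, Ipo7 had a limma log2 fold change of -0.33 (standard error 0.08, adjusted p = 0.00443), and between H19Ter+neo and H19Ter of 0.08 (standard error 0.08, adjusted p = 0.476).

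Mir7-1 is the hairpin gene of miR-7a and lies in an intron of Hnrnpk, the gene of an RNA-binding protein, at chr13:58392779-58392886 on the minus strand. Its mature RNAs are shown from RefSeq with bases 2 to 8, the seed that pairs with targets, in capitals.
miR-7a-5p: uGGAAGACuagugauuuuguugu
miR-7a-1-3p: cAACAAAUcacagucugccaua
Mir7-1 had 2.36, 1.90 and 2.01 log2 CPM in H19Ter+neo, 1.03 and 0.37 in H19Ter and 0.95 and 1.07 in WT. Hnrnpk stood at 9.03, 9.01 and 8.94 log2 CPM in H19Ter+neo, 9.03 and 8.97 in H19Ter and 9.20 and 9.27 in WT. Its limma log2 fold change was -0.24 against WT (standard error 0.05, adjusted p = 0.00363) and -0.01 against H19Ter (standard error 0.05, adjusted p = 0.924). Both hosts were thus lower in H19Ter+neo than in WT, while the RNAs in their introns were higher. The libraries were made for pieces of sheared RNA longer than either small RNA. Mature miR-7a RNAs, of 22 and 23 bases, are shorter than a single read, so the values of Mir7-1 do not measure them. Reads of the Mir7-1 hairpin, a longer precursor and the host intron cannot be told apart. The same holds for Snora23, its precursor and the Ipo7 intron.

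**Figure D4:**
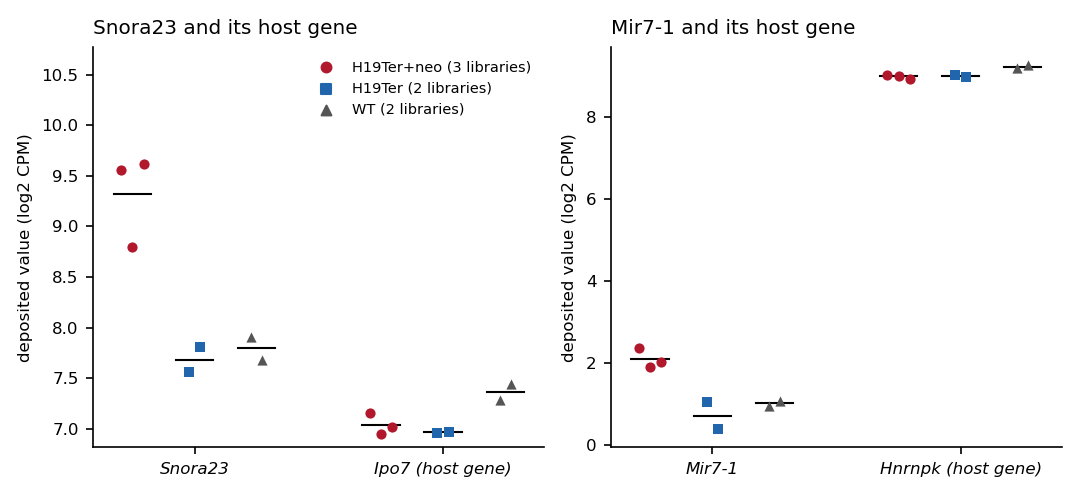
Log2 CPM (y axis) of Snora23 beside its host gene Ipo7 (left) and of Mir7-1 beside its host gene Hnrnpk (right), with 1 point per library and black lines at the means of H19Ter+neo, H19Ter and WT. Snora23 and Mir7-1 were 1.53 and 1.08 above WT in H19Ter+neo, while Ipo7 and Hnrnpk were 0.33 and 0.24 below WT.

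Of 42 small nucleolar and Cajal body RNAs, Snora23 included, 13 were higher and 2 lower in H19Ter+neo than in WT in limma, where 27.7% of all genes were higher. Against H19Ter, 13 were higher and 1 lower, where 12.5% of all genes were higher. The medians of their log2 differences were 0.16 and 0.28. The 3 others with the smallest p against WT were Snord17, Snora78 and Snord58b, at limma log2 fold changes of 1.07, 1.18 and 1.09 (adjusted p = 3.84e-04, 6.33e-04 and 9.21e-04). Of these, Snord17 had 7.01, 6.36 and 7.01 log2 CPM in H19Ter+neo, 5.57 and 5.67 in H19Ter and 5.74 and 5.69 in WT, with replicate 6 the lowest of its group as in Snora23. Of 63 microRNA hairpins and hosts, Mir7-1 included, 14 were higher and 13 lower in H19Ter+neo than in WT, where 27.7% and 26.7% of all genes were. Mir5125 went the other way from Mir7-1, at 1.05, 1.39 and 0.78 log2 CPM in H19Ter+neo, 2.23 and 2.47 in H19Ter and 2.47 and 2.41 in WT.

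The remaining families that hold a member were large, and their medians lay near 0. Of 311 solute carriers, 117 were higher and 65 lower in H19Ter+neo than in WT, at a median of 0.13, where 27.7% of all genes were higher and 26.7% lower. Slc18a2, a vesicular monoamine transporter, Slc2a5, a fructose transporter, and Slc43a1, an amino acid transporter, had the smallest p of these. Slc18a2 and Slc2a5 were 2.43 and 1.51 above WT in H19Ter+neo and 1.82 and 1.26 above WT in H19Ter, unlike Slc5a4a. Of 323 genes named Fam or Tmem, 89 were higher and 74 lower in H19Ter+neo than in WT, shares near those of all genes. Tmem120a had 4.58, 4.61 and 4.75 log2 CPM in H19Ter+neo, 3.91 and 3.78 in H19Ter and 3.62 and 3.46 in WT, and Tmem232 had 5.28, 5.29 and 5.20 in H19Ter+neo, 4.43 and 4.57 in H19Ter and 4.33 and 4.11 in WT, both near the members' pattern, while Fam3c was 0.86 below WT.

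In 5 of the 6 histone members the order was replicate 7, then 5, then 6, against 4 of the 17 other members, 21 of all 70 histone genes (30%) and 15.0% of all genes. The order 5, 7, 6 was the more frequent one over the 70 histone genes, with 36 of them. The SD over the 3 H19Ter+neo libraries had a median of 0.33 (0.25 to 0.43) in the histone members and 0.16 (0.01 to 0.45) in the others, against 0.14 over all genes. Snora23 spread most of the 23 genes (SD 0.45, n = 3) and Tmem128 least (SD 0.01, n = 3). The lowest H19Ter+neo library of each histone member was at least 0.85 above the other genotypes, where the rule had required at least 0.8.

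**Figure D5:**
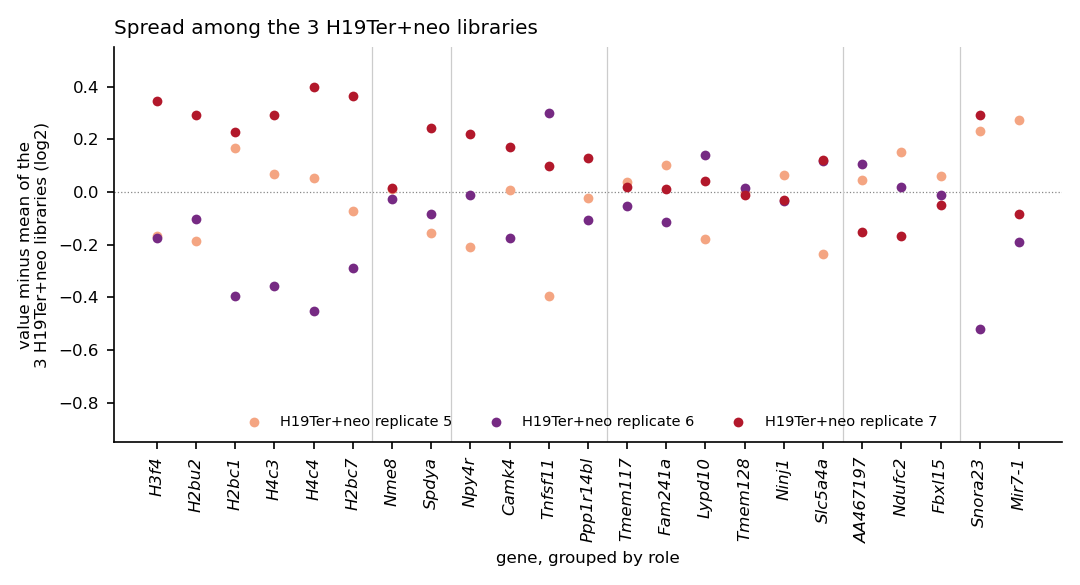
Log2 CPM of each H19Ter+neo library minus the mean of the 3 (y axis) for the 23 genes, by role group (separated by grey lines), with replicate 5 in orange, replicate 6 in purple and replicate 7 in red. Replicate 7 is the highest in all 6 histone genes at the left and replicate 6 lies lowest in 5 of them, while none of the 6 membrane genes has the order 7, 5, 6.

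In features that the rule did not use, part of the members stood apart from most genes. Their exonic length had a median of 1348 bases against 3503 over all annotated genes, and 8 of the 23 were under 1000 bases, against 12.3% of all genes. A single exonic block was found in 9 of the 23, against 18.1% of all genes. The 6 histone genes, both small RNAs and Ppp1r14bl account for these 9. GC content did not stand apart, with medians of 48.5% in the members and 48.6% in all genes.

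By position, 7 of the 23 were on chromosome 13, where 4.44% of all genes lie, and 4 of the 7 are the histone genes of the cluster. Nme8 lies 3.88 Mb before H2bc7, and Ninj1 and Mir7-1 lie 9.20 Mb from each other on the same chromosome. On chromosome 7, which carries the terminator and Pgkneo, were Lypd10, Ndufc2 and Snora23, 118, 45.2 and 32.5 Mb from the insertion. None of 16 genes near the insertion met the rule. As 23 of 20643 genes met it, a list of this size would seldom hold 1, and nothing is read from its absence. Of the 16, 4 were higher and 1 lower in H19Ter+neo than in WT in limma, where 27.7% and 26.7% of all genes were. The 46 genes next to the members to the left and right held no member, from which nothing is read either. Of the 46, 12 were higher and 11 lower in H19Ter+neo than in WT, shares near those of all genes, at a median log2 difference of 0.03.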

How the data were processed

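Total RNA, depleted of rRNA and with no selection for poly(A), was sequenced from sorted prospermatogonia in directional libraries. Per the labels, reads were trimmed with Trim Galore 0.6.0 and aligned to mm10 with STAR 2.7.8, and the submitters' notes also name edgeR and deepTools. The authors deposited log2 CPM values of 20643 genes in 7 libraries, scaled by library and with a mean prior count of 2 read pairs. Whole read pairs were recovered from these values and served for depth and scaling alternatives.

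Groups came from the genotype labels. All genes were fitted with limma 3.58.1 (R 4.3.3) on the deposited values, with a trend and genotype as the only factor, and p-values were adjusted by Benjamini-Hochberg. They measure the spread between these libraries, which were counted as biological replicates. The 3 genotypes shared 1 estimate of spread. Between replicates, the chi-square per degree of freedom was 42.9 to 61.8 in H19Ter+neo, 9.45 in H19Ter and 7.64 in WT. Depth differed between the genotypes too, and its part in these values was not tested. With only H19Ter and WT fitted, 44 of the 70 histone genes were lower and 3 higher in H19Ter, against 25 and 1 in the shared fit. Coordinates and lengths are from GENCODE vM21 (GRCm38), promoters and mature miRNAs from RefSeq. The fit was tested on simulated data drawn from the recovered reads, where the share of false calls for H19Ter against WT, with 2 libraries each, was above the threshold used, so that its counts of calls are the least certain. The simulation gave all genotypes the same spread, so it did not cover a spread that differs between them.

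The members and lists were chosen with earlier results of these data known. Genes named in the text are the 15 members with the largest gap, the 15 with the highest H19Ter+neo mean, the 4 members and 4 other genes nearest the limit, those with the largest and smallest spread, up to 5 of each role group, and 3 other genes of each list that holds a member. Hosts, neighbours and further histone genes were chosen after their values were seen. Alternatives were other limits, prior counts, scalings, depth, a GC and length trend, voom, a filter, and each library left out.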

Additional observations from a re-analysis of the deposited data

How the results depend on the processing

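The rule took 23 genes. A gap of at least 0.5 took 95, a gap of at least 1 took 7, and all symbols took 38. Leaving out 1 library gave 22 to 33 genes. The gap of a gene cannot fall when a library is left out, and H19Ter+neo libraries have no part in H19Ter minus WT. That all 23 were kept without each H19Ter+neo library was thus nearly fixed by the rule. Without H19Ter replicate 3, H2bu2, Lypd10, Mir7-1 and Tnfsf11 were lost, without H19Ter replicate 4 Slc5a4a, without WT replicate 1 AA467197, Slc5a4a and Tnfsf11, and without WT replicate 2 AA467197, H2bu2 and Lypd10. A prior count of 0.5 kept 23, median ratio scaling 22, removal of a GC and length trend 17, thinning 18, and plain library totals 15 of the 23, and the cause was not tested. The median gap of 0.89 ran from 0.89 to 1.06 with 1 library left out, where it could not fall. Genes called by limma numbered 11231 in H19Ter+neo against WT (7730 to 11118 with 1 library left out), 5717 in H19Ter+neo against H19Ter (2326 without H19Ter replicate 3, 2994 without H19Ter replicate 4, up to 5404) and 5187 in H19Ter against WT (1408 without WT replicate 2, 1892 without H19Ter replicate 4, 2260 without H19Ter replicate 3, up to 5870, and 3092 with voom). The balance of calls turned in H19Ter+neo against WT with a filter on low values (3500 higher and 4727 lower, against 5717 and 5514), with voom (5235 and 5428) and without H19Ter+neo replicate 5 (5548 and 5570), and in H19Ter against WT with only those 2 groups (3069 and 3286, against 2914 and 2273) and with the filter (1792 and 2105). A count model (edgeR) was planned and was not run, and voom on the recovered read pairs was run in its place. No paired analysis was possible because the replicate numbers, 1 to 7, are not shared between genotypes.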

Other observations

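Levels rest on 2 or 3 libraries a genotype, and 9 of the 23 genes had fewer than 100 read pairs in each H19Ter and WT library. Depth went with genotype. Litter, strain makeup and batch of each library are not in the labels. Muscle markers were higher in both mutants, and the 5 of 10 macrophage markers with a value summed to 7.47 to 9.58 CPM in H19Ter+neo, 9.13 to 9.84 CPM in H19Ter and 6.11 to 7.41 CPM in WT. Their part in the levels of the 23 genes was not tested.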
